A study of Arabidopsis thaliana with 12 samples.

Results

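The genes described here are those of the Arabidopsis thaliana mitochondrial genome: every row of the count table that lies wholly on the mitochondrial sequence, 152 of 32833 genes. Poly(A) RNA was sequenced from 16-day-old seedlings of se-1, cbp20, cbp80 and WT, with 3 libraries of each genotype, all in the Col background. se-1 is a hypomorphic allele of SERRATE, so the SE protein is not removed altogether, and cbp20 and cbp80 carry mutations in the small and the large subunit of the nuclear cap-binding complex. The plants were untreated and grown in constant light, the replicates came from different pools of plants, and the cbp80 allele is not given in the sources used here. SE and the cap-binding complex act on capped RNA in the nucleus, and the question asked of the mitochondrial genes was whether their RNA in the poly(A) fraction differed between each mutant and WT.

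The plant mitochondrial genome encodes a small part of the respiratory chain, part of the cytochrome c maturation machinery, some ribosomal proteins, ribosomal and transfer RNAs and many open reading frames of unknown use. Its transcripts carry no cap. A poly(A) tail in plant mitochondria marks an RNA for decay instead of stabilising it, so a poly(A) library holds only a small, biased part of mitochondrial RNA. Many plant nuclear genomes also hold copies of mitochondrial DNA, and in Arabidopsis a large one lies on chromosome 2.

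The libraries held between 18565569 and 27068656 counted read pairs. CBP20 RNA was 11.2 to 13.6 CPM (counts for every 1000000, scaled by TMM) in cbp20 and 33.3 to 39.4 CPM in WT, whereas CBP80 RNA was 31.3 to 38.5 CPM in cbp80 and 35.8 to 43.4 CPM in WT, and SE RNA was 78.0 to 81.3 CPM in se-1 and 81.0 to 87.7 CPM in WT. The seedling label was checked on leaf, root and flower markers. The leaf gene RBCS1A was 6841 to 7640 CPM in se-1, 5141 to 6067 in cbp20 and 5683 to 6254 in cbp80. In WT it was 4442 to 5265 CPM, below all se-1 and cbp80 libraries, and cbp20 overlapped WT. The root gene PIN2 was between 19.7 and 29.9 CPM in the 12 libraries. The leaf gene LHCB1.2 was 1599 to 2946 CPM in the 9 mutant libraries and 1164 to 1278 CPM in WT, the root hair gene COBL9 was 5.56 to 9.06 CPM in the mutants and 9.11 to 9.55 CPM in WT, and the flower gene AP1 was 0.806 to 1.60 CPM in se-1 and at most 0.0518 CPM elsewhere. The flower gene AG was 0.231 to 0.428 CPM in se-1, 0.0734 to 0.268 CPM in cbp20, 0.259 to 0.466 CPM in cbp80 and 0.0453 to 0.133 CPM in WT, so that all se-1 and cbp80 libraries lay above WT. LHCB1.2 and COBL9 separate the same groups as the mitochondrial share, and RBCS1A separates se-1 and cbp80 from WT. The part of these markers in the share was not tested. In whole seedlings, fewer cells of a type and less RNA per cell cannot be told apart.

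The row with the most mitochondrial counts was ORF107A (ATMG00030, TAIR10 Mt:11918-12241, plus strand), an open reading frame that shares bases with a ribosomal RNA gene. In the RefSeq annotation of the Col-0 mitochondrion, 185 of its 324 bases lie inside rrn26, the gene of the large-subunit ribosomal RNA, which runs on the opposite strand. The RefSeq rrn26 is 3169 bases long, while the rrn26 row of the count table (ATMG00020, TAIR10 Mt:8848-11415, minus strand) spans 2568 bases and ends 502 bases before ORF107A begins. The counting did not use strand, so pairs from this end of the ribosomal RNA and pairs from ORF107A itself cannot be told apart. In RefSeq, 46.9% of the ORF107A bases lie in a nuclear copy and 46.9% in another mitochondrial copy. For rrn26 no copy long enough to be scored was found in either place. The bases in a nuclear copy thus lie mostly outside the part shared with rrn26. Some must lie inside it, since they outnumber the bases outside it. Pairs that aligned to several places were not counted, so part of the pairs from the copied bases may be missing. The first 300 bases of ORF107A are shown because this row holds 44.3% of all mitochondrial counts. They come from RefSeq (TAIR10.1, mitochondrion, plus strand), which is another mitochondrial sequence than the one the count table uses, and the bases shared with rrn26 are in capitals.

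ORF107A: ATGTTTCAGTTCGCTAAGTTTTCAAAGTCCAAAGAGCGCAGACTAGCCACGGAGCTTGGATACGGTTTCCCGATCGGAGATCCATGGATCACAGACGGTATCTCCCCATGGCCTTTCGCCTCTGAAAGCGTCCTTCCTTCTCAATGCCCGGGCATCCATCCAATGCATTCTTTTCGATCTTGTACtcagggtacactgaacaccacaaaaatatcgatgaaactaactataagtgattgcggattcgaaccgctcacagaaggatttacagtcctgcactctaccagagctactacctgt

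Of the 152 rows, 103 had at least 1 count and 41 had a count in all 12 libraries, while 49 had none. The 12 libraries together held 82233 mitochondrial counts, between 5226 and 9062 in each. ORF107A, rrn18 (ATMG01390, the small-subunit ribosomal RNA, TAIR10 Mt:361350-363284, minus strand) and rrn26 held 88.7% of them. The 38 rows with a protein or maturase role held 7.88%, the other 73 named open reading frames 3.13%, and the 24 tRNA genes 57 counts in all. Reads that matched ribosomal or transfer RNA had been removed before alignment, so the counts of these genes are what that filter left. Per kb of exon the order was ORF107A at 435.8 ± 38.9 CPM, rrn18 at 64.9 ± 13.4 CPM, rrn26 at 6.18 ± 1.03 CPM and ORF149 at 3.42 ± 0.938 CPM (SD over the 12 libraries). The first 3 of these levels stood apart by more than their spread. ORF149, rpl16 (3.10 ± 0.944), rrn5 (3.03 ± 1.47), ORF240A (2.84 ± 0.732) and ORF113 (2.82 ± 0.861) did not differ from each other beyond theirs.

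All mitochondrial genes together took a smaller share of each mutant library than of any WT library. The share was 254.7, 296.9 and 325.2 ppm (counts for every 1000000 gene counts, unscaled) in se-1, 270.8, 290.1 and 307.9 in cbp20, 340.5, 304.3 and 281.5 in cbp80, and 412.6, 360.5 and 386.4 in WT. No mutant library reached the lowest WT library. The means were 292.2 ± 35.5 in se-1, 289.6 ± 18.5 in cbp20, 308.7 ± 29.7 in cbp80 and 386.5 ± 26.0 in WT (SD, n = 3 each), which is 0.756, 0.749 and 0.799 of the WT mean for se-1, cbp20 and cbp80. In each library this is 0.0255% to 0.0413% of all gene counts. The design text sets libraries of the same number against each other, although in the counts such libraries were weakly correlated at most. By number, the difference from WT was -157.9, -63.6 and -61.3 ppm for se-1, -141.7, -70.4 and -78.6 for cbp20, and -72.1, -56.2 and -105.0 for cbp80. The share is a sum over the genes and is given as a description without a test. With TMM-scaled counts in place of library totals the 3 ratios were 0.800, 0.773 and 0.841, and the groups again did not overlap. The 133 plastid genes, counted in the same way, took 9839 to 10800 ppm in se-1, 9981 to 10550 in cbp20, 9630 to 9973 in cbp80 and 9754 to 11440 in WT, and every mutant overlapped WT.

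**Figure D1:**
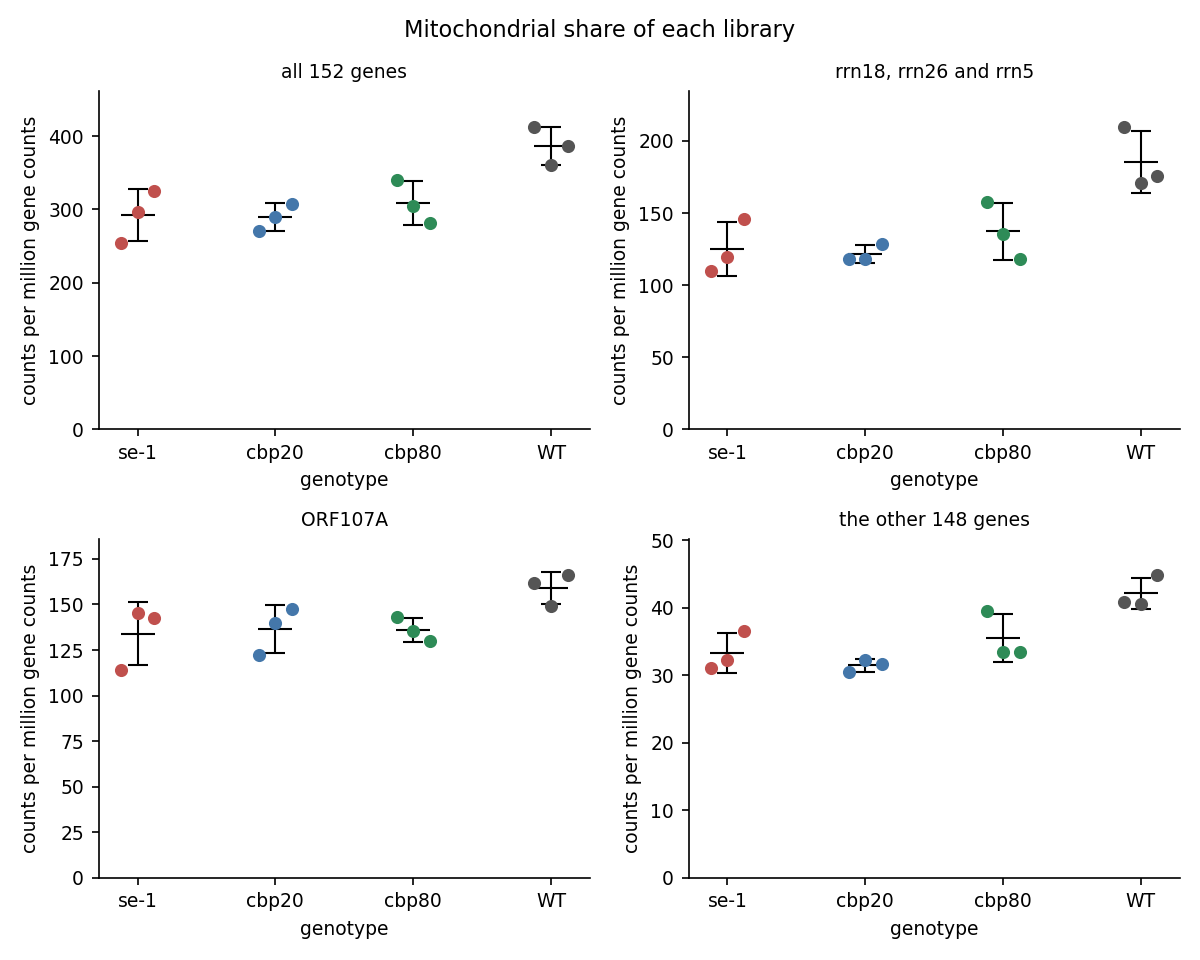
Mitochondrial counts in ppm of gene counts (vertical axes, from 0) in each library of se-1, cbp20, cbp80 and WT (horizontal axes) for all 152 genes, the 3 ribosomal RNA genes, ORF107A and the other 148 genes; points are libraries, bars the mean ± SD of 3. In all 4 panels the WT libraries lie above every mutant library, for all genes at 360.5 to 412.6 against at most 340.5 in the mutants.

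The share was also read in the ribosomal RNA genes, in ORF107A and in all other genes. The 3 ribosomal RNA genes took 124.9 ± 18.8 ppm in se-1, 121.6 ± 6.26 in cbp20, 137.2 ± 19.7 in cbp80 and 185.3 ± 21.3 in WT, ratios of 0.674, 0.656 and 0.741. ORF107A took 134.0 ± 17.4 in se-1, 136.5 ± 12.9 in cbp20, 136.0 ± 6.76 in cbp80 and 159.0 ± 8.72 in WT, ratios of 0.842, 0.858 and 0.855. The other 148 genes took 33.3 ± 2.93 in se-1, 31.5 ± 0.926 in cbp20, 35.5 ± 3.53 in cbp80 and 42.1 ± 2.34 in WT, ratios of 0.791, 0.747 and 0.843. In these 3 groups no mutant library reached the lowest WT library, but this did not hold in every smaller group among the 148. The 38 genes with a protein or maturase role took 23.3 ± 2.13 ppm in se-1, 21.8 ± 0.869 in cbp20, 25.9 ± 2.40 in cbp80 and 29.6 ± 2.01 in WT, where cbp80 overlapped WT. The 73 other named open reading frames took 9.61 ± 0.832 ppm in se-1, 9.07 ± 0.42 in cbp20, 9.25 ± 0.952 in cbp80 and 11.9 ± 1.93 in WT, where se-1 and cbp80 overlapped WT.

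Gene by gene, 29 mitochondrial genes had enough counts to be tested in se-1 against WT, 29 in cbp20 against WT and 28 in cbp80 against WT, at 10 counts or more in 3 or more of the 6 libraries. At a Benjamini-Hochberg adjusted p under 0.05 over all genes tested (edgeR quasi-likelihood test), 2 genes passed in se-1 and 4 in each of cbp20 and cbp80, all of them lower in the mutant. Over all genes tested, 16.2% were called lower and 17.6% higher in se-1, 9.48% and 10.2% in cbp20, and 18.6% and 20.1% in cbp80, so the share of mitochondrial genes called lower was not above that of genes at large in se-1 and cbp80 and was near it in cbp20. At an unadjusted p under 0.05, 6, 9 and 8 mitochondrial genes passed, of which 5, 9 and 6 were lower. Of all genes tested, 43.0%, 31.8% and 47.3% passed at this p, and 21.2%, 15.8% and 23.2% passed and were lower. DESeq2 on all 12 libraries called 2, 2 and 3, all lower. The fold change was below 0 for 24 of 29 genes in se-1, 24 of 29 in cbp20 and 21 of 28 in cbp80, against 50.7%, 50.2% and 51.1% of all genes tested. The median log2 fold change of the mitochondrial genes was -0.29, -0.42 and -0.22, and that of all genes between -0.01 and 0. Genes that passed the count minimum are a selected part of the 152, and the 3 comparisons share the WT libraries. In cbp80, atp4 passed that minimum through the WT libraries alone.

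**Figure D2:**
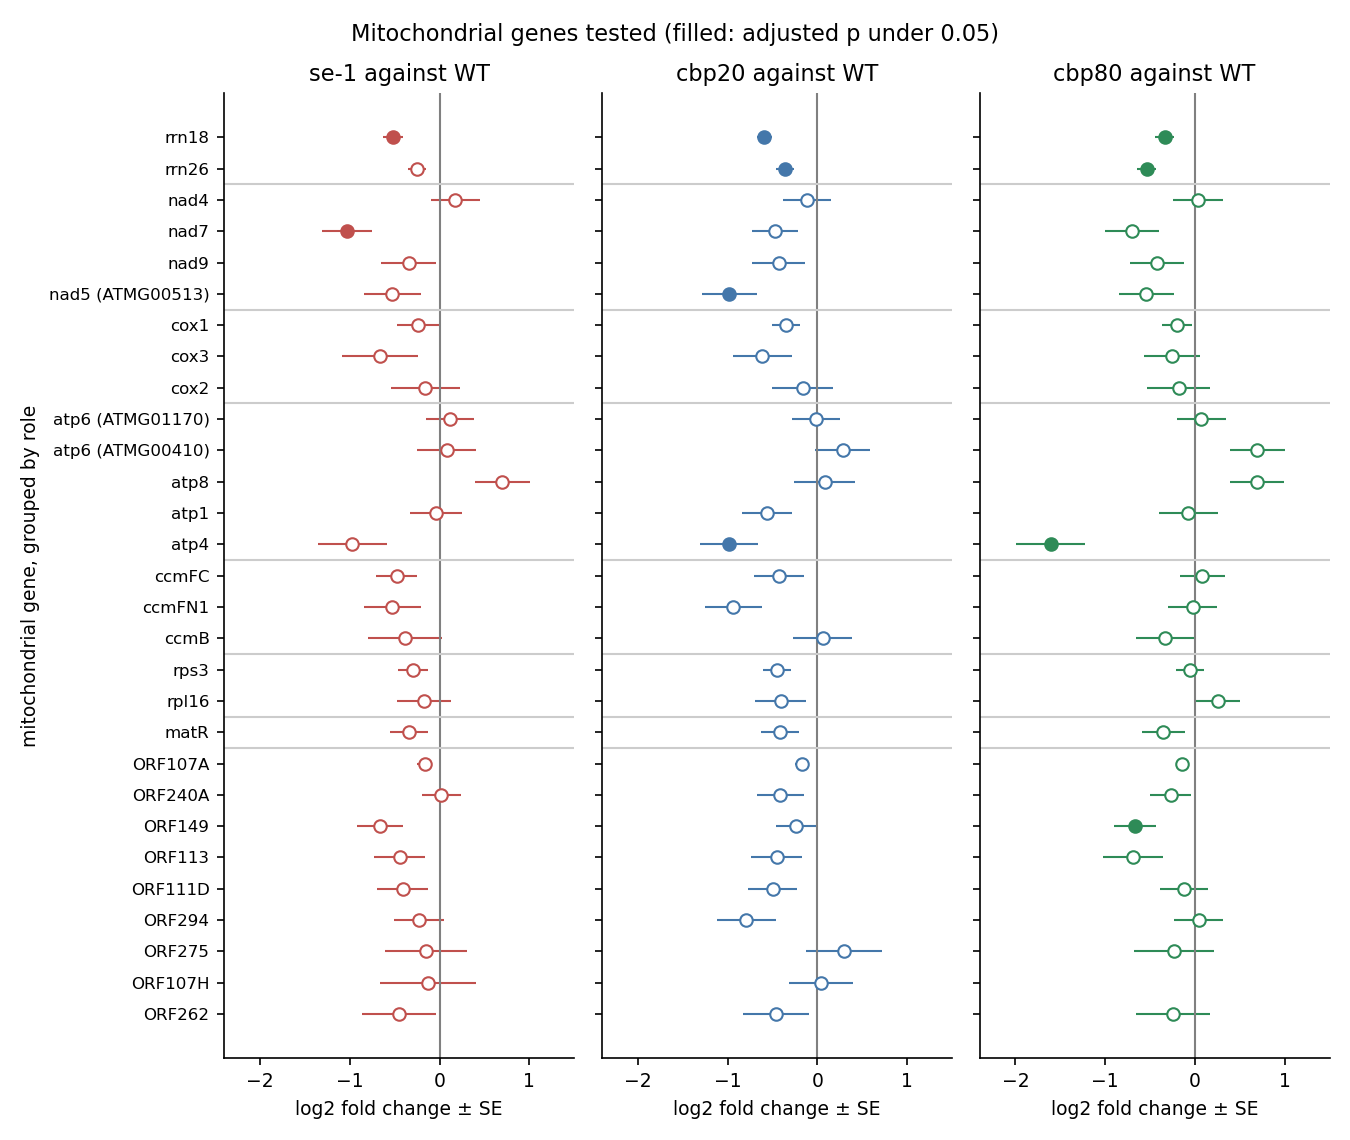
Log2 fold change (horizontal axes, mutant over WT, ± SE) of each mitochondrial gene tested (vertical axis, grouped by role) in se-1, cbp20 and cbp80; filled points passed an adjusted p of 0.05. Every filled point lies below 0, from -0.34 for rrn18 in cbp80 to -1.61 for atp4 in cbp80. In cbp80, atp4 met the count minimum through its WT libraries alone. The ribosomal RNA genes have the narrowest bars beside ORF107A.

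The counts of the ribosomal RNA genes are what the removal of ribosomal RNA reads before alignment left. These genes are the backbone of the mitochondrial ribosome, and rrn18 was the one gene called in all 3 mutants. It had 97.4, 105.4 and 130.8 CPM in se-1, 101.7, 102.4 and 113.3 CPM in cbp20, 144.8, 125.8 and 107.5 CPM in cbp80, and 182.4, 144.9 and 151.0 CPM in WT. All mutant libraries lay below the lowest WT library, 1 cbp80 library by little. The log2 fold change was -0.52 ± 0.11 in se-1 (SE, adjusted p = 0.0028), -0.59 ± 0.08 in cbp20 (adjusted p = 0.000195) and -0.34 ± 0.10 in cbp80 (adjusted p = 0.0164). In cbp80 the call was lost without WT replicate 1 (adjusted p = 0.0884) and without cbp80 replicate 3 (adjusted p = 0.0854).

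rrn26 had 15.7, 15.2 and 17.5 CPM in se-1, 15.4, 14.6 and 14.7 CPM in cbp20, 14.4, 12.5 and 12.7 CPM in cbp80, and 22.0, 18.9 and 16.7 CPM in WT. The cbp20 and cbp80 libraries did not overlap WT, and 1 se-1 library did. It was called lower in cbp80 at -0.54 ± 0.10 (SE, adjusted p = 0.000978) and in cbp20 at -0.36 ± 0.10 (adjusted p = 0.0183), while the value in se-1 was -0.25 ± 0.10 (adjusted p = 0.0811). In cbp20 the call was lost in 3 of the fits that left out 1 library, those without WT replicate 1 (adjusted p = 0.0968), cbp20 replicate 2 (adjusted p = 0.0503) and cbp20 replicate 3 (adjusted p = 0.0518). rrn5, the 5S ribosomal RNA, had 4 to 14 counts a library and was not tested in these comparisons.

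ORF107A had 117.8, 147.4 and 145.5 CPM in se-1, 121.4, 139.8 and 146.9 CPM in cbp20, 144.7, 138.1 and 131.9 CPM in cbp80, and 157.9, 143.7 and 159.2 CPM in WT. On this scale every mutant had a library above the lowest WT library. The fold changes were -0.16 ± 0.08 in se-1 (adjusted p = 0.159), -0.18 ± 0.07 in cbp20 (adjusted p = 0.122) and -0.15 ± 0.06 in cbp80 (adjusted p = 0.0644), and none was called. With library size alone as the scale it was called lower in all 3, at -0.25 (adjusted p = 0.0389), -0.22 (adjusted p = 0.0492) and -0.23 (adjusted p = 0.00876).

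**Figure D3:**
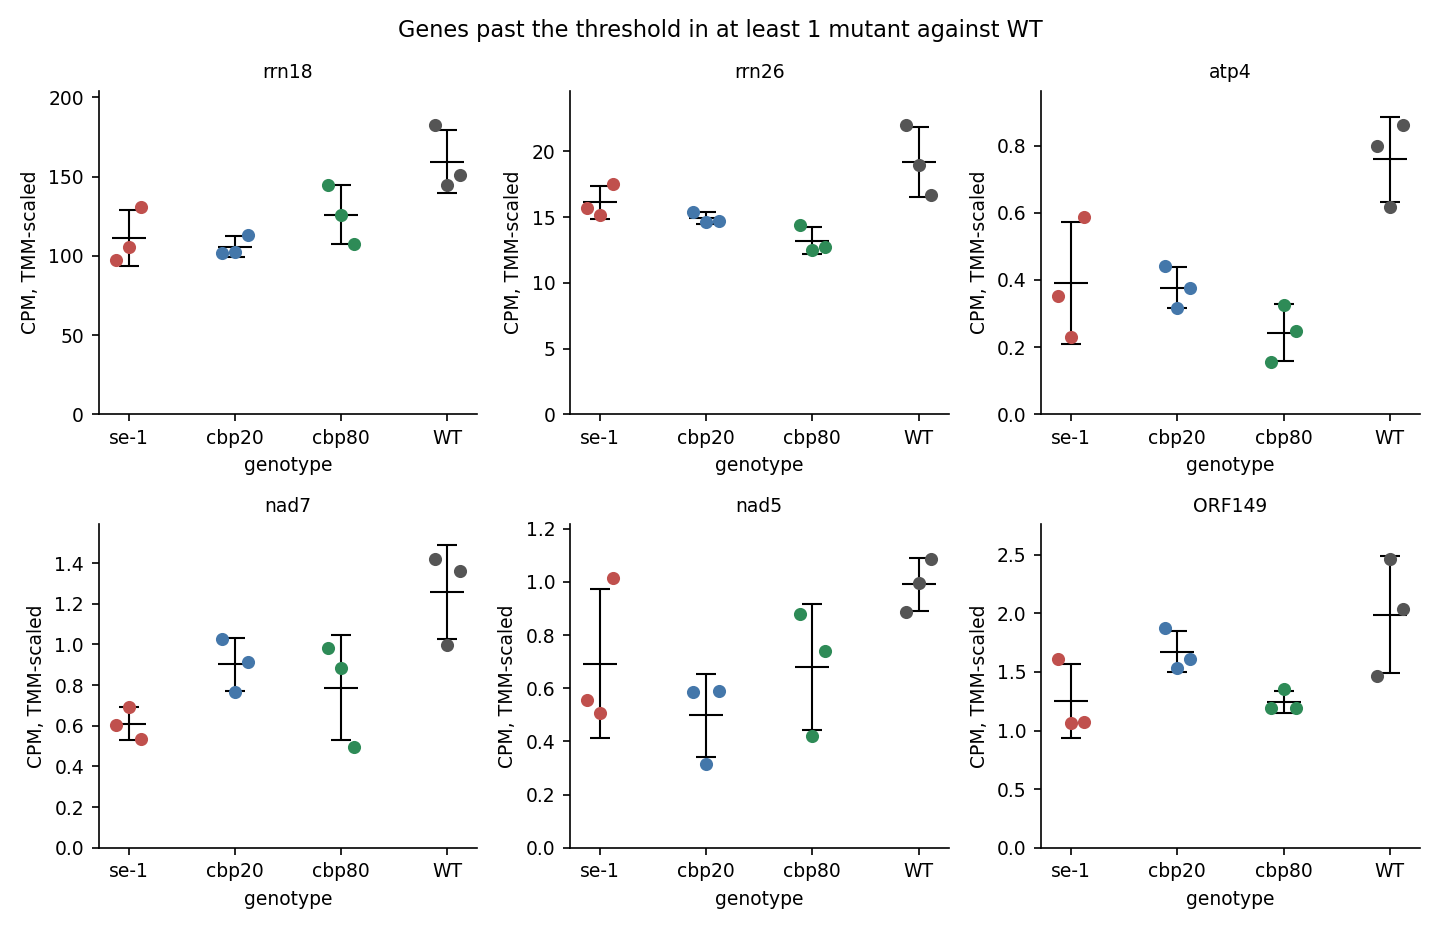
TMM-scaled CPM (vertical axes, from 0) of the 6 mitochondrial genes called in at least 1 mutant against WT, by genotype (horizontal axes); points are libraries, bars the mean ± SD of 3. rrn18 and atp4 lie below the lowest WT library in all 9 mutant libraries, with atp4 at 0.155 to 0.588 CPM in the mutants and 0.617 to 0.861 CPM in WT.

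ATP synthase, which makes ATP from the proton gradient, had genes on both sides of 0. atp4 (ATMG00640, TAIR10 Mt:188084-188662, minus strand), a subunit of the membrane-embedded part, had 7, 5 and 11 counts in se-1, 12, 7 and 7 in cbp20, 3, 7 and 6 in cbp80, and 18, 13 and 19 in WT. Its 9 mutant libraries all lay below WT in CPM. It was called lower in cbp80 at -1.61 ± 0.38 (SE, adjusted p = 0.00448) and in cbp20 at -0.98 ± 0.33 (adjusted p = 0.0484), with -0.97 ± 0.38 in se-1 (adjusted p = 0.0691). The cbp20 call did not hold in 9 of its 13 alternative fits, among them DESeq2 (adjusted p = 0.197) and each fit that left out 1 library except that without WT replicate 2, and the adjusted p ranged from 0.0385 to 0.197. In cbp80 it met the count minimum through its WT libraries alone, so being tested at all depended on the group where it was high. The cbp80 call held in the 10 alternative fits that tested it, and the fits that left out 1 WT library did not test it. atp8 went the other way in value, with 0.907, 1.39 and 1.18 CPM in se-1, 0.624, 0.587 and 1.13 CPM in cbp20, 1.14, 1.40 and 0.946 CPM in cbp80, and 0.844, 0.474 and 0.815 CPM in WT. All its se-1 and cbp80 libraries lay above WT, but neither difference passed (0.70 ± 0.30, adjusted p = 0.0968, and 0.69 ± 0.30, adjusted p = 0.0821). The rows of atp6, which forms the proton channel, have copies of one another, so their counts are uncertain. ATMG00410 had 21, 15 and 18 counts in se-1, 24, 21 and 25 in cbp20, 19, 36 and 35 in cbp80, and 27, 16 and 13 in WT, with fold changes of 0.08 ± 0.33, 0.28 ± 0.31 and 0.69 ± 0.30 (adjusted p = 0.877, 0.586 and 0.0887). In CPM it overlapped WT in every mutant, and it was called higher in cbp80 in the fits without WT replicate 1 and without cbp80 replicate 1. The more abundant of them, ATMG01170, had 1.76, 1.71 and 1.76 CPM in se-1, 1.51, 1.49 and 1.83 CPM in cbp20, 1.40, 2.05 and 1.60 CPM in cbp80, and 2.31, 1.04 and 1.45 CPM in WT, with fold changes of 0.12 ± 0.27, -0.01 ± 0.27 and 0.07 ± 0.28 (adjusted p = 0.774, 0.980 and 0.867). Summed over its 6 rows, the complex took 5.09 ± 0.45 ppm in se-1, 4.54 ± 0.646 in cbp20, 5.41 ± 0.487 in cbp80 and 5.10 ± 0.921 in WT, and every mutant overlapped WT.

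Complex I, the NADH dehydrogenase that feeds electrons into the chain, had the lowest ratios of the protein groups. Its 14 rows took 4.28 ± 0.797 ppm in se-1, 3.98 ± 0.17 in cbp20, 4.33 ± 0.734 in cbp80 and 6.35 ± 0.38 in WT, ratios of 0.675, 0.627 and 0.683, and no mutant library reached WT. The nad7 and nad5 rows described here lie within nuclear copies, so part of their pairs may not have been counted. nad7 (ATMG00510) had 0.605, 0.694 and 0.535 CPM in se-1, 1.03, 0.768 and 0.913 CPM in cbp20, 0.985, 0.885 and 0.493 CPM in cbp80, and 1.42, 0.996 and 1.36 CPM in WT. It was called lower in se-1 at -1.03 ± 0.28 (SE, adjusted p = 0.0134), a call lost without WT replicate 1 (adjusted p = 0.0528). The values were -0.47 ± 0.25 in cbp20 (adjusted p = 0.227) and -0.70 ± 0.30 in cbp80 (adjusted p = 0.0774). nad5, whose RNA is joined from separate transcripts by trans-splicing, is spread over several rows, and the longest of them (ATMG00513) had 0.554, 0.509 and 1.02 CPM in se-1, 0.587, 0.316 and 0.591 CPM in cbp20, 0.881, 0.419 and 0.740 CPM in cbp80, and 0.888, 0.996 and 1.09 CPM in WT. All cbp20 and cbp80 libraries lay below WT, and it was called lower in cbp20 alone, at -0.98 ± 0.31 (adjusted p = 0.0387), with -0.53 ± 0.32 in se-1 (adjusted p = 0.231) and -0.54 ± 0.31 in cbp80 (adjusted p = 0.181). The cbp20 call held in 4 of 13 alternative fits and in none that left out 1 library, with adjusted p from 0.03 to 0.128. The other tested genes of the complex were not called. nad4, its most abundant row, had 0.857, 1.11 and 1.39 CPM in se-1, 0.881, 1.08 and 0.752 CPM in cbp20, 0.777, 1.30 and 0.946 CPM in cbp80, and 1.11, 0.806 and 1.04 CPM in WT, overlapping in every mutant. Its fold changes were 0.18 ± 0.27, -0.12 ± 0.27 and 0.04 ± 0.28 (adjusted p = 0.667, 0.808 and 0.932), and those of nad9 were -0.35 ± 0.31, -0.43 ± 0.29 and -0.43 ± 0.30 (adjusted p = 0.421, 0.346 and 0.293). nad6, under the count minimum, had 5, 1 and 6 counts in se-1, 5, 4 and 1 in cbp20, 3, 3 and 4 in cbp80, and 17, 11 and 6 in WT. That difference was not tested.

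Cytochrome c oxidase, the last complex of the chain, had no gene called. cox1, its catalytic subunit, had 2.52, 2.27 and 4.60 CPM in se-1, 2.68, 2.93 and 3.06 CPM in cbp20, 3.89, 2.84 and 2.88 CPM in cbp80, and 4.09, 3.42 and 3.49 CPM in WT. Only the cbp20 libraries all lay below WT, and the fold changes were -0.24 ± 0.23, -0.35 ± 0.15 and -0.20 ± 0.17 in se-1, cbp20 and cbp80 (adjusted p = 0.468, 0.139 and 0.359). cob, the cytochrome b of complex III, had no count in any library. Its RefSeq sequence lies wholly inside a nuclear copy and pairs that aligned to several places were not counted, so this 0 sets no limit on its RNA.

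The genes of cytochrome c maturation, which attach haem to cytochrome c, took 2.23 ± 0.216 ppm in se-1, 2.26 ± 0.483 in cbp20, 3.03 ± 0.573 in cbp80 and 3.28 ± 0.452 in WT. se-1 and cbp20 did not overlap WT, and cbp80 did. The ribosomal protein genes took 5.44 ± 0.0883 ppm in se-1, 5.04 ± 0.525 in cbp20, 6.79 ± 1.14 in cbp80 and 6.96 ± 1.55 in WT, where again only cbp80 overlapped WT. No gene of either group was called. rps3, a small-subunit protein whose row had the most counts of the known-role genes, had 4.33, 4.25 and 3.21 CPM in se-1, 3.30, 3.84 and 3.49 CPM in cbp20, 5.39, 4.15 and 4.48 CPM in cbp80, and 4.62, 4.13 and 5.75 CPM in WT. Its fold changes were -0.29 ± 0.17, -0.45 ± 0.16 and -0.05 ± 0.15 (adjusted p = 0.207, 0.0592 and 0.811). rpl16, whose row overlaps that of rps3 and whose shared pairs were not counted, had 1.21, 1.25 and 2.19 CPM in se-1, 0.991, 1.31 and 1.72 CPM in cbp20, 2.54, 1.82 and 1.89 CPM in cbp80, and 1.38, 1.38 and 2.45 CPM in WT, with fold changes of -0.17 ± 0.30, -0.41 ± 0.28 and 0.25 ± 0.25 (adjusted p = 0.704, 0.358 and 0.457). matR, the maturase that acts in intron splicing, had 2.12, 1.71 and 1.82 CPM in se-1, 1.69, 1.85 and 1.83 CPM in cbp20, 1.30, 1.86 and 2.34 CPM in cbp80, and 1.91, 2.99 and 2.27 CPM in WT. Its values were -0.34 ± 0.21, -0.42 ± 0.21 and -0.35 ± 0.24 (adjusted p = 0.25, 0.186 and 0.265).

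Among the open reading frames of unknown role, ORF149 (ATMG00660, TAIR10 Mt:190104-190553, minus strand) had 1.61, 1.06 and 1.07 CPM in se-1, 1.87, 1.53 and 1.61 CPM in cbp20, 1.19, 1.35 and 1.19 CPM in cbp80, and 1.47, 2.47 and 2.04 CPM in WT. The cbp80 libraries all lay below WT and it was called lower there, at -0.67 ± 0.24 (SE, adjusted p = 0.0375). That call was lost with DESeq2 (adjusted p = 0.0761) and in 5 of the 6 fits that left out 1 library, all but that without WT replicate 1 (adjusted p from 0.0127 to 0.159 over the alternatives). The value in se-1 was almost as large (-0.66 ± 0.26, adjusted p = 0.0684) and that in cbp20 smaller (-0.23 ± 0.22, adjusted p = 0.521). ORF240A had 1.76, 2.40 and 2.78 CPM in se-1, 1.47, 2.48 and 1.18 CPM in cbp20, 2.23, 1.35 and 2.10 CPM in cbp80, and 1.91, 2.75 and 2.22 CPM in WT, overlapping in every mutant (0.02 ± 0.22, -0.41 ± 0.26 and -0.27 ± 0.22, adjusted p = 0.962, 0.3 and 0.364).

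Over the tested mitochondrial genes, 4 had all se-1 libraries below all WT libraries, 11 had this in cbp20 and 6 in cbp80, and 1, 0 and 1 had all mutant libraries above. Of all genes tested, 23.2%, 17.8% and 24.7% lay wholly below WT and 23.1%, 17.9% and 24.8% wholly above. rrn18 and atp4 were below in every mutant, and atp8 was the gene above in se-1 and in cbp80. In cbp80, atp4 was among the tested genes only through its WT counts.

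The mutants were also set against each other, in 1 fit of all 12 libraries with 30 mitochondrial genes tested. No mitochondrial gene was called in cbp80 against cbp20, in se-1 against cbp20 or in se-1 against cbp80 by edgeR, where 10.2%, 13.6% and 11.4% of all genes were called in either direction. At an unadjusted p under 0.05 there were 5, 0 and 1, against 23.4%, 26.7% and 25.3% of all genes, and DESeq2 called 0 in each. The smallest adjusted p was 0.0731, 0.218 and 0.0765. Genes called in 1 mutant against WT and not in another were thus not shown to differ between those mutants.

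Pairs that aligned to more than 1 place were not counted, so copies elsewhere in the genome could limit how much of a mitochondrial gene was counted. The part of such copies in the level of a gene was not tested. The names of 138 rows were matched to RefSeq. By their RefSeq sequence, 100 of these genes lay wholly inside a nuclear copy of at least 98% identity. Of the others, 28 had no base in a scored copy and 10 had a part. The largest stretch of copies is the insertion on chromosome 2 (TAIR10 chr2:3239038-3509765). Of the known-role genes, 27 had at least 50% of their bases in a nuclear copy and 10 had less. The first group had a median of 0.395 CPM per kb, from 0 to 2.00 (atp8), and 7 of its genes, rpl5, cob, rps4, ccmC, nad3, rps7 and a row of nad1, had no count at all. The second group had a median of 1.07 CPM per kb, from 0.48 (nad4L) to 3.10 (rpl16), with none at 0. The difference between mutants and WT was present on both sides. Known-role genes with a copy took 12.2 ± 0.953 ppm in se-1, 11.2 ± 0.306 in cbp20, 13.6 ± 0.623 in cbp80 and 15.1 ± 0.993 in WT, and those with little or none took 10.9 ± 1.44 in se-1, 10.5 ± 0.571 in cbp20, 12.2 ± 1.89 in cbp80 and 14.1 ± 1.67 in WT. In both groups se-1 and cbp20 lay wholly below WT and cbp80 overlapped it.

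**Figure D4:**
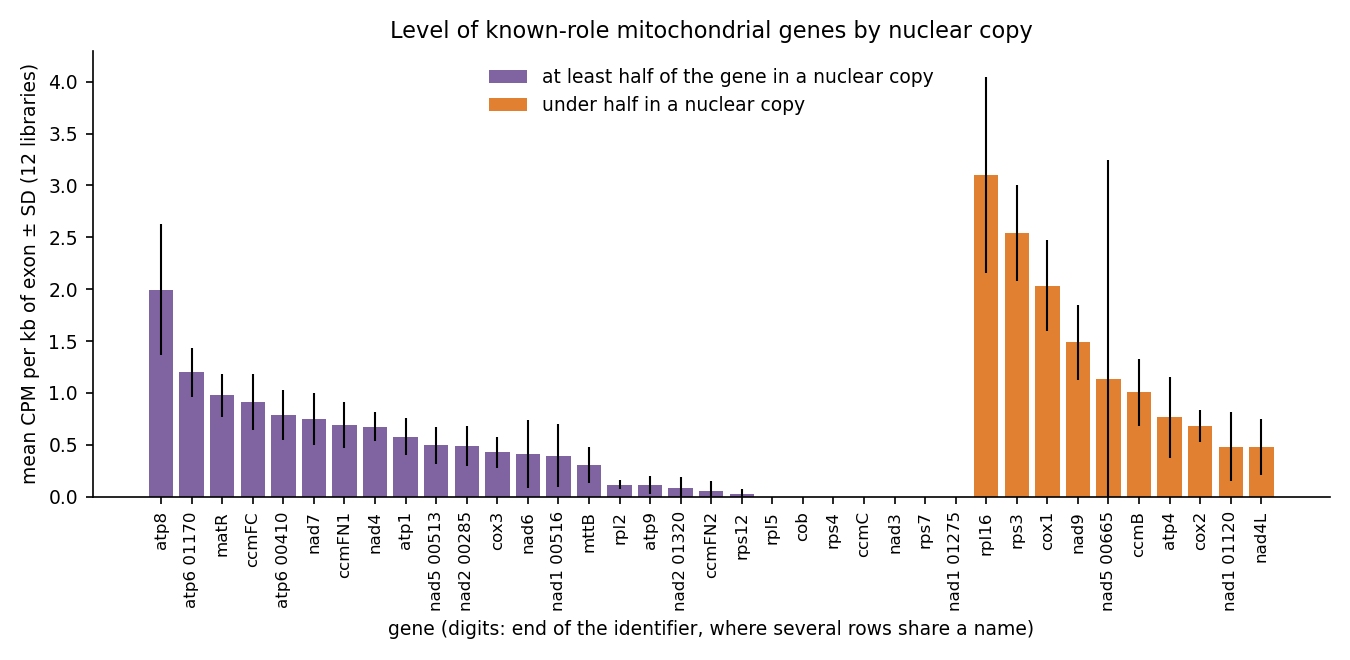
Mean TMM-scaled CPM per kb of exon over the 12 libraries (vertical axis, from 0, ± SD) of the known-role mitochondrial genes (horizontal axis), in purple where at least 50% of the gene has a nuclear copy and in orange where less has. The purple genes end in 7 at 0, and the orange ones run from 3.10 for rpl16 to 0.48 for nad4L.

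The 124 genes annotated inside the chromosome 2 insertion are nuclear rows, but pairs from mitochondrial RNA can align there. Together they took 31.8 ± 3.73 ppm in se-1, 31.8 ± 1.87 in cbp20, 32.3 ± 2.40 in cbp80 and 39.1 ± 2.76 in WT, again with every mutant library below every WT library. Of those tested, 0 of 20 were called in se-1, 2 of 21 in cbp20 and 1 of 20 in cbp80, all lower. The share of all genes called lower was 16.2%, 9.48% and 18.6%, which these counts lay near in cbp20 and below in the others. The log2 fold changes had medians of -0.32, -0.29 and -0.29.

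Most mitochondrial proteins are encoded in the nucleus, so 3 lists of such genes were read beside the mitochondrial ones. The first list held 17 genes, for subunits of the respiratory complexes and for cytochrome c (CYTC-1 and CYTC-2). Of these 17, 5 were higher in cbp80, CYTC-1 among them, and 1 in each of the other mutants. None was lower. The share of all genes called higher was 20.1% for cbp80, 10.2% for cbp20 and 17.6% for se-1, so the list lay below it in se-1 and cbp20 and not far from it in cbp80. COX5B-1 (AT3G15640), a subunit of cytochrome c oxidase, was the one called in all 3, with means of 60.5 CPM in se-1, 47.6 CPM in cbp20, 55.5 CPM in cbp80 and 35.4 CPM in WT, and log2 fold changes of 0.77 ± 0.07 in se-1 (SE, adjusted p = 5.18e-06), 0.43 ± 0.07 in cbp20 (adjusted p = 0.000946) and 0.65 ± 0.09 in cbp80 (adjusted p = 8.21e-05). RISP-2, the iron-sulfur protein of complex III, and SDH2-1, a subunit of succinate dehydrogenase, were higher in cbp80 at 0.25 ± 0.07 (adjusted p = 0.0128) and 0.19 ± 0.06 (adjusted p = 0.0154). The median of the list was 0.02, 0.03 and 0.08.

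Of 13 nuclear factors of mitochondrial RNA synthesis, splicing and decay, 1 was lower and 1 higher in se-1, 1 higher in cbp20, and 1 lower and 2 higher in cbp80, none of these counts above the share of all genes called in that direction (16.2% lower and 17.6% higher in se-1, 9.48% and 10.2% in cbp20, 18.6% and 20.1% in cbp80). NMAT4 (AT1G74350), a nuclear-encoded intron maturase that acts on nad1 introns, was called higher in every mutant. Its mean was 4.19 CPM in se-1, 4.55 CPM in cbp20, 6.66 CPM in cbp80 and 2.15 CPM in WT, and the log2 fold change was 0.97 ± 0.17 in se-1 (SE, adjusted p = 0.00082), 1.08 ± 0.16 in cbp20 (adjusted p = 0.00034) and 1.63 ± 0.15 in cbp80 (adjusted p = 1.35e-06). RNR1, an exoribonuclease, was lower in se-1 at -0.18 ± 0.06 (adjusted p = 0.0288). In cbp80 PRORP1, the RNase P of mitochondria, was higher at 0.20 ± 0.06 (adjusted p = 0.0191) and SHOT1, an mTERF protein, lower at -0.30 ± 0.11 (adjusted p = 0.0394). The mitochondrial RNA polymerase RPOTM was not called in any mutant, with -0.14 ± 0.07 in se-1 (adjusted p = 0.149), -0.05 ± 0.08 in cbp20 (adjusted p = 0.682) and -0.16 ± 0.07 in cbp80 (adjusted p = 0.0849). RPOTM was named after its value was seen.

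Of 8 nuclear genes that respond to impaired mitochondria, 7 were tested, and 3 were lower in each of se-1 and cbp20, with 2 in cbp80, and none was higher. The share of all genes called lower was 16.2% for se-1, 9.48% for cbp20 and 18.6% for cbp80. AOX1A, the alternative oxidase, was lower in se-1 at -0.40 ± 0.07 (SE, adjusted p = 0.000516) and in cbp20 at -0.36 ± 0.08 (adjusted p = 0.00647), with -0.12 ± 0.06 in cbp80 (adjusted p = 0.126). NDB2, an alternative NADH dehydrogenase, was lower in all 3, at -0.44 ± 0.08 in se-1 (adjusted p = 0.00137), -0.23 ± 0.07 in cbp20 (adjusted p = 0.0334) and -0.26 ± 0.06 in cbp80 (adjusted p = 0.00518). HSP23.5, a small heat shock protein of mitochondria, was lower in se-1 at -1.34 ± 0.25 (adjusted p = 0.00113). AT12CYS-2 was lower in cbp20 at -3.03 ± 0.61 (adjusted p = 0.00286) and in cbp80 at -1.91 ± 0.51 (adjusted p = 0.0093), at mean levels of 0.108 CPM in cbp20, 0.238 CPM in cbp80 and 0.883 CPM in WT. At that mean no cbp20 library could reach 10 counts, so in cbp20 it was tested through its WT libraries alone. In cbp80 its mean also lay under 10 counts a library. AT12CYS-2 is among the 3 genes lower in cbp20 and the 2 in cbp80. The median of the list was -0.40, -0.23 and 0.04, so in cbp80 it lay on the other side of 0 from its called genes.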

How the data were processed

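Poly(A) RNA-seq of 12 seedling libraries (paired-end) was used. Per the labels and methods, the authors first discarded reads that matched rRNA or tRNA (Bowtie2). TopHat2 2.1.1 then placed the remaining reads on TAIR10, and pairs were counted per gene with featureCounts 1.5.0-p3, without strand and without pairs that aligned to several places or genes. The values used are the deposited raw counts. The deposited tables of the authors' own DESeq2 comparisons (log2 fold changes, p-values) were not used.

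Mitochondrial rows were those placed only on the mitochondrial sequence. They were named by matching span (within 3 bases), strand and distance to neighbouring genes with the RefSeq Col-0 mitochondrion (TAIR10.1), 124 rows by equal span and 14 by distance alone. 14 rows found no match. The sequences differ, so only coordinates of the count table are printed. Nuclear copies were found with blastn 2.17.0 from the RefSeq sequences, not from the mitochondrial sequence the reads were aligned to. Short hits were not scored.

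Counts were fitted with edgeR 4.0.16 (R 4.3.3; TMM, glmQLFit and glmQLFTest, two-sided, Benjamini-Hochberg over all genes). A mutant was fitted with WT on 6 libraries, and the mutants against each other in 1 fit of 12. The SE is the fold change over the root of F. DESeq2 1.42.0, other scalings, no filter, other sample sets and leaving out libraries were alternatives. The fit was tested on simulated data. Values per library were given for the 10 most abundant mitochondrial genes and up to 8 called genes per comparison, with nad4, nad6, nad9, atp8, the other atp6 row and RPOTM added after their values were seen, and for up to 3 called genes per nuclear list. Members and lists were chosen with earlier results of these data known. The sources give different pools of plants as replicates, so p-values measure the spread between pools.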

Additional observations from a re-analysis of the deposited data

How the results depend on the processing

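The count of mitochondrial genes called moved by more than 1.5 times under several settings. With library size alone it was 6 in se-1 and 7 in cbp20, in place of 2 and 4, as the median of all genes moved to -0.09 and -0.05 on the log2 scale. With 1 fit of all 12 libraries it was 5 in se-1, with DESeq2 2 in cbp20, and without a filter on low counts 7 in cbp80, in place of 4. Leaving out 1 library gave 2 to 4 in se-1 (4 without se-1 replicate 3), 1 to 5 in cbp20 (1 without WT replicate 1 or cbp20 replicate 3, 2 without WT replicate 3 or cbp20 replicate 1), 2 to 5 in cbp80 (2 without WT replicate 3 or cbp80 replicate 3) and 0 to 1 in cbp80 against cbp20, where ORF294 was called higher without cbp20 replicate 2. Against WT, the 2 calls of a higher mitochondrial gene were of the atp6 row ATMG00410 and arose in cbp80 without WT replicate 1 and without cbp80 replicate 1. For the share, leaving out rRNA and tRNA genes gave 0.835 of WT in cbp20 and leaving out ORF107A gave 0.673, in place of 0.749. Over all alternatives the share stayed at 0.696 to 0.832 of WT in se-1, 0.673 to 0.835 in cbp20 and 0.758 to 0.852 in cbp80. The sums without ORF107A and rRNA, with the chromosome 2 genes added and with TMM scaling were chosen after seeing the data. No other cause of these shifts was tested.

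Replicate numbers paired the libraries weakly at most. The correlation of same-numbered deviations was -0.036 to 0.115 in se-1, 0.094 to 0.098 in cbp20 and -0.067 to 0.062 in cbp80. Between unlike numbers it was -0.108 to 0.053 in se-1, -0.128 to 0.036 in cbp20 and -0.106 to 0.052 in cbp80. In cbp20 every same-numbered value lay above every other value, while in se-1 and cbp80 the ranges overlapped. With the replicate number as a block, 2, 4 and 4 genes were called in se-1, cbp20 and cbp80, of which 2, 3 and 4 were those of the fit without it (atp4 in cbp20 had an adjusted p of 0.0512), and 0 between mutants. Low counts limit the single genes: at most 29 of the 152 genes could be tested against WT.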
